A study of Mus musculus with 11 samples.

Results

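The cells described here are the embryonic day 16 (E16) cells of the mouse cochlear duct that carried transcripts of both Pmch and Fst and passed 4 limits that keep out other cell types. The gate was read from the deposited values, which are natural logarithms (ln). It asked for Pmch above 0, Fst above 0, Pou4f3 at 0, Matn4 under 2.0, Npy under 2.5 and Oc90 under 3.5. It found 64 cells of 7961 at E16, in a series of 30634 cells. They are called Hensen's cells here, after their label and their 2 gate genes. Of the 64, replicates 1, 2 and 3 held 4, 9 and 51 cells.

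The libraries are 11 droplet collections (10x Chromium) from the epithelial floor of the cochlear duct of CD1 wild-type mice, with no treatment, taken at E14, E16, postnatal day 1 (P1) and postnatal day 7 (P7). Each library pools the cochleae of several pups of either sex, from an independent collection according to the methods, so that the spread between replicates is a spread between pools of animals. Unique molecular identifiers (UMIs), which mark each captured transcript, were recovered from the ln values. A level below is the mean over cells of a gene's UMIs per 1000000 UMIs of the cell (CPM), and a log2 difference was taken on log2(CPM + 20), which shrinks the differences of genes at low levels.

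Hensen's cells are tall supporting cells that border the organ of Corti on its lateral side, between the outermost Deiters' cells and the Claudius and outer sulcus cells. They carry no hair bundle and belong to the non-sensory epithelium that holds the sensory cells in place and takes part in ion handling around them. Pmch encodes the precursor of melanin-concentrating hormone, a neuropeptide best known from the hypothalamus. Fst encodes follistatin, a secreted protein that binds and blocks activins and other ligands of the TGF-beta superfamily. Pou4f3 is a hair cell transcription factor, Npy and Matn4 mark pillar and inner phalangeal cells of this tissue, and Oc90 encodes an otoconial protein made by the cochlear roof.

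The gate genes are given as a description only, since they chose the cells. Pmch stood at 3214, 1029 and 973 CPM in the Hensen's cells of replicates 1 to 3 and at 7.60, 3.70 and 7.43 CPM in the other cells lacking Pou4f3. Fst stood at 968, 635 and 820 CPM in the Hensen's cells and at 70.2, 61.6 and 167 CPM in the other cells. Of 65 E16 cells with both transcripts the limit on Oc90 removed 1, with an ln value of 4.47 against a highest value inside of 2.54, and the limits on Pou4f3, Matn4 and Npy removed 0 beyond it. The highest values inside were 1.91 for Matn4 and 1.05 for Npy.

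The number of Pmch UMIs differed widely between the cells. Among the 64 cells 27 held 1 Pmch UMI, 6 held 2 and 31 held 3 or more, and the highest held 26. Of the cells with 1 UMI, 25 were in replicate 3, where they made up 25 of 51. Free RNA in a droplet library can put a UMI into a cell that does not express the gene. Of 619 E16 cells with Pou4f3, 1 held a Pmch UMI (0.162%, exact 95% binomial interval 0.00409% to 0.897%, median 3543 UMIs a cell). The share was 0.890% (0.678% to 1.15%) of 6627 cells without Fst or Pou4f3, at a median of 2629 UMIs, and 9.09% (7.09% to 11.4%) of 715 cells with Fst, at 3143 UMIs. Thinned to 1500 UMIs a cell, the classes gave shares of 0.162%, 0.528% and 5.87%. These shares pool the cells of 3 libraries and concern genes of the gate, so they are a description and not a test. In replicate 3 alone 0 of 163 cells with Pou4f3 held a Pmch UMI (interval up to 2.24%). At P1 the share in cells with Pou4f3 (2.29%) was above that in cells without Fst or Pou4f3 (1.23%). How much of the Pmch in any class is free RNA was not tested. In E16 replicates 1 to 3 Pmch came without Fst or Pou4f3 in 11, 11 and 37 cells. Of these, 10, 10 and 30 passed the limits on Matn4, Npy and Oc90.

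The share of cells that pass the gate depends on depth, because the gate needs a UMI of each of 2 genes. It was 0.321% (exact interval 0.0875% to 0.819%) in replicate 1, 0.320% (0.146% to 0.606%) in replicate 2 and 1.31% (0.975% to 1.71%) in replicate 3. After thinning to 1500 UMIs, 2, 3 and 21 cells passed. Hensen's cells held a median of 3502, 4128 and 4110 UMIs in replicates 1 to 3, against 2442, 2514 and 2726 in the other cells. The intervals cover counting error only. No barcode of a Hensen's cell was shared with another E16 library.

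The promoters of 3 genes are shown as RefSeq gives them on GRCm38.p6, 250 bases before to 50 after the start of transcription. Pmch is shown because it defines the cells, Fabp7 because it had the largest log2 difference of the genes that were higher, and Car10 because it is the only one of the 12 genes named as higher below whose window held a GATA sequence (8 of the 12 have a window in the table). Gata2 and Gata3 encode zinc finger transcription factors that bind such sequences. Both were higher in Hensen's cells than in all other E16 cells lacking Pou4f3. Neither passed the test against cells with Fst but no Pmch. Capitals mark the motif AGATAA, the motif AGATAG, the motif TGATAA or the motif TGATAG, searched on both strands, and Fabp7 has none. The sequences are in the direction of the gene, which is the plus strand in each case, at chr10:88090822-88091121 for Pmch, chr11:93098116-93098415 for Car10 and chr10:57784673-57784972 for Fabp7.
Pmch: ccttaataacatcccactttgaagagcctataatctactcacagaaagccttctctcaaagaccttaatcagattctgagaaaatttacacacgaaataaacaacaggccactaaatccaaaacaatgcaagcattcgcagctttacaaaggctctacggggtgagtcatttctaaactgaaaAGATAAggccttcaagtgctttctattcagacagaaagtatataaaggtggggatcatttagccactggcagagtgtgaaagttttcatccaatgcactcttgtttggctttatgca
Car10: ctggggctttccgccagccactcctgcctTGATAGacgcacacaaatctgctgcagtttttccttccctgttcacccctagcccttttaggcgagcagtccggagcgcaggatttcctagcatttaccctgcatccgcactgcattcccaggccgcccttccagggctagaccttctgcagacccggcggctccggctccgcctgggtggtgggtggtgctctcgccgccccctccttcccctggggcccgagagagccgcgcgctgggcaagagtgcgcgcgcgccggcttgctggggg
Fabp7: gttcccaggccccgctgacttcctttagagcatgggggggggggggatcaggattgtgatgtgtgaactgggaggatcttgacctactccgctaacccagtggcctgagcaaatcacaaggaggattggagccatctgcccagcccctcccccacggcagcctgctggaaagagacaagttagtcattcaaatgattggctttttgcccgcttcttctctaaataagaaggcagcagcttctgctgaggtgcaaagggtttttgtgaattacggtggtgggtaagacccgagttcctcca
The letters began 67 bases before the start in Pmch and 221 bases before it in Car10. Such a sequence was found in 29.8% of 32851 promoter windows of all genes. It was in 24.4% of the 45 windows of genes called higher in Hensen's cells and in 10.3% of the 78 windows of genes called lower. Of the 12 windows of the genes named as higher, 1 held it (8.33%). That is the Car10 window shown, of 2 windows for that gene. A match is a description of the letters and not of binding.

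Against all other E16 cells lacking Pou4f3, Hensen's cells were higher for Fabp7, Nupr1, Syt6, Egfl6 and Gata2 and lower for Calb1, Crabp1, Ebf1, Epyc and most of the measured genes of Koelliker's organ. Gata2 was only 1.2-fold higher than in cells with Fst but no Pmch, described below, and did not pass the test there. The question is what sets Hensen's cells apart from the rest of the duct floor. Fabp7, which encodes a fatty acid-binding protein, was 16.9-fold higher and Nupr1, which encodes a small nuclear protein of the stress response, was 22.4-fold higher, as ratios of the means over 3 libraries. Ebf1, a transcription factor gene, was 38.1-fold lower. Of 6193 genes tested with limma (library as a block, Benjamini-Hochberg adjusted p under 0.05), 53 were higher (0.856%) and 92 lower (1.49%), and 53 and 88 of these moved the same way in all 3 libraries. The median log2 difference over all genes tested was -0.21, and scaling by median of ratios gave 34 higher and 121 lower. That median was 0.0595 with only as many other cells as Hensen's cells and -0.0452 without replicate 1. The counts changed with the settings, and the causes were not tested. With only as many other cells as Hensen's cells drawn from each library 1 and 4 genes passed. The cells for this setting were drawn at random 1 time, here and below, and another draw could give other values. With each cell thinned to 1500 UMIs 14 and 31 passed, and without the block for library 12 and 15. Without replicate 1 the counts were 87 and 121, without replicate 2 19 and 46, and without replicate 3 33 and 44. Of the genes called, Psmb2 alone changed direction when a library was left out, which was replicate 1. On simulated profiles of these depths, more of the E16 calls were false than the threshold allows. The E16 counts and adjusted p-values given here and below are subject to this limit. The simulated counts were drawn for whole profiles and not cell by cell. They do not copy the spread of a mean over few cells.

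Of the 12 genes named as higher, Fabp7, Egfl6, Syt6 and Agr3 encode proteins of lipid binding, matrix and membrane traffic. Fabp7 stood at 1077, 1427 and 330.5 CPM in the Hensen's cells of replicates 1 to 3 and at 47.6, 90.2 and 30.4 CPM in the other cells (log2 difference 3.51 ± 0.38, SE, adjusted p = 6.32e-17). The groups did not overlap, and replicate 3 was the lowest of the 3. In this fit limma took each gene's variance wholly from the trend over genes of like level. The SE and adjusted p therefore do not reflect a gene's own spread over the 3 libraries. Egfl6, which encodes a secreted matrix protein with EGF domains, stood at 312, 179 and 200 CPM against 16.8, 11.7 and 11.98 CPM (2.87 ± 0.60, adjusted p = 0.000181). Syt6, a synaptotagmin of membrane traffic, stood at 448, 525.5 and 101 CPM against 18.7, 10.1 and 6.40 CPM (3.33 ± 0.57, adjusted p = 1.45e-06), again lowest in replicate 3. Agr3, of the disulphide isomerases of the endoplasmic reticulum, stood at 336, 490.1 and 282 CPM against 65.7, 39.8 and 42.0 CPM (2.48 ± 0.46, adjusted p = 1.43e-05). Egfl6 lost its call without replicate 3 (adjusted p = 0.14).

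Nupr1, Gata2, Gata3, Zbtb20 and Id4, which encode nuclear proteins, were higher as well. Nupr1 stood at 359.5, 368 and 304 CPM in Hensen's cells and at 22.6, 10.8 and 12.7 CPM in the other cells (3.37 ± 0.54, adjusted p = 1.26e-07). Gata2 stood at 541, 921 and 496 CPM against 97.3, 83.2 and 101 CPM (2.51 ± 0.37, adjusted p = 1.99e-09). All 3 libraries of Hensen's cells lay above all 3 of the other cells for both genes. Gata3 stood at 1102, 990.4 and 713 CPM against 439, 341 and 432 CPM (1.16 ± 0.25, adjusted p = 0.00033), a smaller difference on a higher level. Zbtb20, a zinc finger repressor gene, stood at 2323, 1704 and 809 CPM against 475, 376 and 238 CPM (2.02 ± 0.23, adjusted p = 1.30e-15), and Id4, an inhibitor of basic helix-loop-helix factors, at 463, 881 and 633 CPM against 208, 221 and 263 CPM (1.40 ± 0.30, adjusted p = 0.000435).

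The other genes named as higher were Pcdh17 (a protocadherin of cell adhesion), Fxyd7 (a regulator of the sodium pump), Rcsd1 (a partner of the actin capping protein), Fam105a, Zmat4 and Car10 (a carbonic anhydrase relative without catalytic activity). Their log2 differences ran from 2.36 ± 0.70 for Car10 to 2.68 ± 0.55 for Pcdh17. The groups did not overlap in any of the 12 genes named as higher (6.65% of all genes tested lay apart in this direction). Named genes were picked for large differences alike in these same libraries. That they lie apart, here and below, therefore follows largely from the choice and is not further support. Fam105a stood at 259.8, 108 and 34.8 CPM against 6.02, 2.54 and 2.94 CPM, a wide spread over the libraries. These 6 were the weakest of the 12: each lost its call when replicate 2 was left out (adjusted p from 0.085 for Pcdh17 to 0.93 for Fxyd7 and Car10) and when replicate 3 was (0.065 for Pcdh17 to 0.47). Syt6 had an adjusted p of 0.078 without replicate 2, and Fam105a one of 0.12 without replicate 1.

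**Figure D1:**
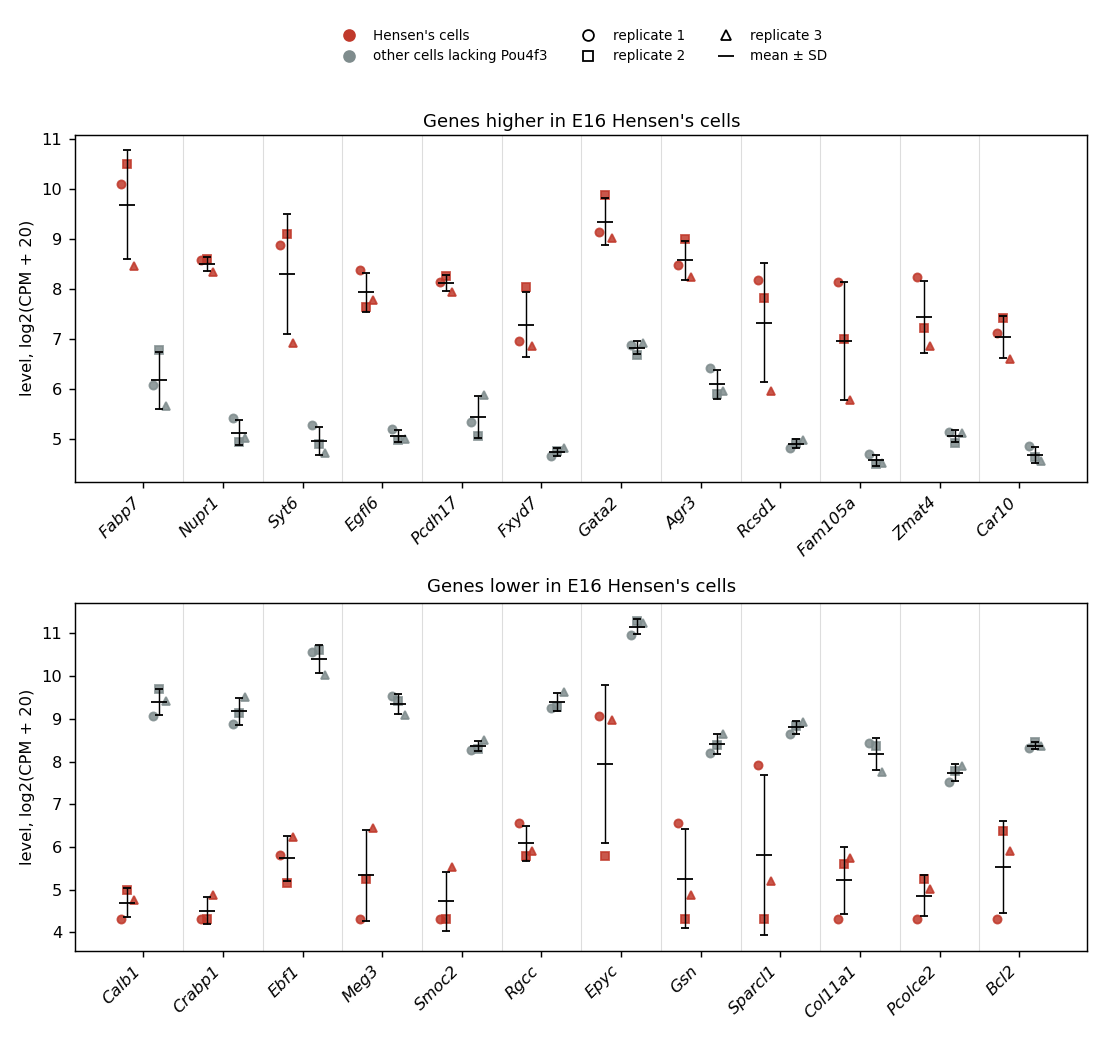
Levels of the 12 genes named as higher and the 12 named as lower in E16 Hensen's cells, as log2(CPM + 20) on the vertical axis, with 1 point for each of 3 libraries in Hensen's cells (red) and in the other cells lacking Pou4f3 (grey); the dash and bar are the mean ± SD over libraries. Red and grey points lie apart for all 24 genes, and the lowest red points of the lower panel stand for 0 CPM.

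Calb1 and Crabp1, both on the list for Koelliker's organ, had the largest log2 differences of the genes named as lower. Calb1, which encodes the calcium buffer calbindin, stood at 0, 11.8 and 6.96 CPM in Hensen's cells and at 520.3, 808 and 669 CPM in the other cells (log2 difference -4.71 ± 0.51, adjusted p = 1.57e-17). Crabp1, a cellular retinoic acid-binding protein gene, stood at 0, 0 and 9.30 CPM against 451, 543 and 711 CPM (-4.67 ± 0.54, adjusted p = 2.56e-15). As a share of the summed UMIs of the 4 and 9 cells, 1 UMI is 58.9 and 21.8 CPM. A value of 0 there allows levels of up to 177 and 65.4 CPM (3 UMIs), and the 51 cells of replicate 3 allow 13.9 CPM. Here and below these limits are on summed UMIs and so only approximate for a mean over cells. In such a mean 1 UMI of a deep cell counts for less. Ebf1 stood at 35.9, 15.9 and 54.8 CPM against 1502, 1540 and 1019 CPM (-4.67 ± 0.37, adjusted p = 1.70e-33). Meg3, an imprinted long non-coding RNA, stood at 0, 17.8 and 66.8 CPM against 720.1, 661 and 527 CPM (-4.01 ± 0.46, adjusted p = 2.41e-15). For these 4 genes the highest library of Hensen's cells lay far under the lowest of the other cells.

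Epyc, the proteoglycan epiphycan, stood at 513, 35.7 and 481 CPM in Hensen's cells and at 1966, 2477 and 2402 CPM in the other cells. Its log2 difference was -3.22 ± 0.23 (limma, adjusted p = 3.11e-41). In Hensen's cells replicate 2 lay far under replicates 1 and 3, a spread that this SE and adjusted p leave out. In replicates 1 to 3 the cells with 1 Pmch UMI stood at 1777, 0 and 933 CPM. There was 1 such cell in replicate 1 and 1 in replicate 2. The cells with 2 or more Pmch UMIs stood at 91.9, 40.1 and 46.7 CPM. Smoc2 (-3.63 ± 0.59), Col11a1 (-2.96 ± 0.56), Sparcl1 (-2.99 ± 0.47) and Pcolce2 (-2.88 ± 0.63), which encode matrix proteins or an enhancer of collagen processing, were lower as well. Sparcl1 reached 222 CPM in replicate 1 and stood at 0 and 17.0 CPM in replicates 2 and 3. Rgcc (a cell cycle regulator), Gsn (the actin-severing gelsolin) and Bcl2 (an inhibitor of cell death) had log2 differences of -3.31 ± 0.41, -3.16 ± 0.54 and -2.85 ± 0.52. The measured values did not overlap in any of the 12 genes named as lower, a state found in 13.2% of all genes tested. This too follows largely from how the genes were chosen. The 0 of Pcolce2 in replicate 1 allows up to 177 CPM, above the 162.6 CPM of the other cells there. Of the 12, Pcolce2 lost its call without replicate 2 (adjusted p = 0.14) or without replicate 3 (0.44).

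The markers of this and neighbouring cell types are given here as means over all gated cells of a library. They do not give the identity of each cell. In replicate 3 Fabp7 stood at 45.2 CPM in the 25 cells with 1 Pmch UMI and at 605 CPM in the rest. Epyc stood at 933 and 46.7 CPM in the same cells. The comparison below is with the other E16 cells lacking Pou4f3. Of 31 further Hensen's cell genes that the study lists for E16, 23 were higher and 0 lower, with a median log2 difference of 1.96 against -0.21 over all genes, but the study chose that list on these libraries and it is not independent evidence. Summed over the list, the level was 12740 to 17720 CPM in Hensen's cells and 3392 to 3796 CPM in the other cells. Beside the genes named above, App (the amyloid precursor), Serpine2 (a protease inhibitor), Itih5, Kazald1, Olfml3, Uchl1, Fbn2 (a fibrillin), Bcl11a, Pla2g12a, Atox1, Gsta4 and Mgst1 were among those that rose. Il33, Egf, Emx2, Plet1, Rassf9, Aqp11, Fam159b and Rgs4 had log2 differences of 0.79 to 2.24 and did not pass.

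Genes of Koelliker's organ and the interdental region, on the medial side of the duct, were 1 higher and 14 lower of 20 tested, with a median of -2.20. The gene that was higher was Clu, which encodes the chaperone clusterin, at 4497, 4518 and 8499 CPM against 2957, 3367 and 6919 CPM (0.44 ± 0.10, adjusted p = 0.000395), and its direction turned when only as many other cells as Hensen's cells were drawn. Dcn, Lum, Cdkn1c, H19, Tectb, Otoa and Slc12a2 belong to this list, and all of these but Otoa were lower. Otoa, the interdental cell gene otoancorin, had 0 UMIs in all 3 libraries of Hensen's cells against 40.2, 38.6 and 76.2 CPM (adjusted p = 0.21).

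On the lateral side the picture was mixed. Of 16 tested genes of the outer sulcus, the Claudius cells and the lesser epithelial ridge, 3 were higher (Gata2, Gata3 and Lmo3) and 2 lower (Epyc and Fbxo2), with a median of 0.04. Fbxo2, an F-box protein gene, stood at 184, 85.6 and 1787 CPM in Hensen's cells and at 1078, 1240 and 1674 CPM in the other cells, so that replicate 3 was not lower. Of 21 tested genes of lateral prosensory and Deiters' cells, Socs2 was higher and S100a1 lower, with a median of -0.52. Of 9 tested genes of inner pillar, inner phalangeal and medial prosensory cells, Fabp7 was higher and Cnmd, Col9a1, Gjb2 and Mfap4 were lower, with a median of -1.57.

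Markers of hair cells, which the limit on Pou4f3 keeps out, and of cells from outside the duct floor were summed in the same way. Of 11 tested hair cell genes 0 were higher and 0 lower, against 0.856% and 1.49% of all genes, so that this count does not set the list apart. Their summed level was 393 to 672 CPM in Hensen's cells and 640.0 to 1746 CPM in the other cells, and of 24 genes 15 to 20 were at 0 in a library of Hensen's cells. Atoh1, the master regulator of hair cell fate, stood at 0, 0 and 5.92 CPM. Mesenchymal genes summed to 0 to 9.86 CPM, neuronal genes to 0 to 15.9 CPM and genes of blood, vessels, immune cells and melanocytes to 35.9 to 112 CPM. The glial list summed to 1033 to 1685 CPM against 1629 to 1840 CPM, most of it Cryab (857, 1407 and 820.4 CPM). Roof genes summed to 91.1 to 525.5 CPM against 920.1 to 1561 CPM.

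The signalling lists are read against the shares over all genes tested, 0.856% higher and 1.49% lower, beside which a count of 0 or 1 in a short list is no result about that list. Of 12 tested ligands, antagonists and receptors of the TGF-beta superfamily, to which follistatin binds, 0 passed the test (median -0.13). Bmp4, a ligand of the outer sulcus, stood at 35.9, 212 and 509.6 CPM in Hensen's cells and at 51.5, 38.4 and 102 CPM in the other cells (1.25 ± 0.52, adjusted p = 0.28). Inhba, the activin subunit that follistatin blocks, stood at 105, 223.5 and 20.9 CPM against 25.0, 14.8 and 13.9 CPM (1.52 ± 0.69, adjusted p = 0.36). Of 10 tested SMAD and ID genes only Id4 passed, and of 12 Wnt genes only Sfrp1, a secreted frizzled-related inhibitor, at 1502, 1554 and 1153 CPM against 716, 724 and 856 CPM (0.85 ± 0.20, adjusted p = 0.00125). Notch (9 tested) and FGF genes (10 tested) had 0 calls, with medians of -0.45 and -0.86. The median of the Wnt genes was -0.84, against -0.21 over all genes. The median over all genes was 0.0595 with 1 random draw of only as many other cells as Hensen's cells. Of 19 FGF genes, 4 to 15 were at 0 in a library of Hensen's cells. The medians of these lists are therefore not read as a lowering of the pathways.

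Of 21 tested otic transcription factors, 4 were higher (Gata2, Gata3, Zbtb20 and Bcl11a) and 2 lower. Eya1, a gene of early ear development and among those lower, stood at 0, 67.4 and 29.8 CPM against 202, 182 and 146 CPM (-2.14 ± 0.59, adjusted p = 0.0157). Of 28 tested matrix genes, 4 were higher (Egfl6, Fbn2, Itih5 and Olfml3) and 9 lower, among them Col2a1, Col9a1, Col9a2 and Col9a3 of cartilage-type collagen. Of 12 genes of lipid and retinoid binding, Fabp7, Gsta4 and Mgst1 were higher and 2 lower, Crabp1 among them, and Gsta4 turned in direction with that equal draw of other cells. Claudins, cadherins and keratins gave 1 higher (Pcdh17) and 2 lower (Cdh4 and Cldn3) of 18, and Gjb2, the connexin 26 gene of the supporting cell network, stood at 109.9, 129 and 260.5 CPM against 497, 551 and 713.5 CPM (-1.77 ± 0.34, adjusted p = 2.20e-05). Of 6 tested cell cycle genes 0 passed, which at those shares over all genes says nothing particular of the list, and the same holds for the stress and peptide lists that follow. Cdkn1c, the p57 inhibitor of cell division, was lower at 221, 75.1 and 277 CPM against 987, 975 and 1452 CPM (-2.59 ± 0.29, adjusted p = 1.29e-16). The dissociation stress list had 0 calls of 12 tested (summed level 4344 to 5088 CPM against 4171 to 5727 CPM). Of the precursors of other neuropeptides and the enzymes that process them, 4 were tested and 0 passed; Cpe, which encodes carboxypeptidase E, stood at 0, 39.1 and 34.1 CPM against 81.8, 85.7 and 86.5 CPM (adjusted p = 0.43), and Mchr1, the receptor for the hormone, had 0 UMIs in every E16 class.

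Cells that hold Fst but no Pmch and pass the same limits numbered 71, 141 and 387 in replicates 1 to 3. Against them 40 genes were higher and 44 lower of 6248 tested (0.640% and 0.704%), and the median was -0.22. Fabp7 (3.59, adjusted p = 2.34e-15), Syt6 (2.96, 5.92e-05), Nupr1 (2.83, 2.23e-05), Egfl6 (2.65, 0.00208), Col26a1 (2.49, 0.0457) and Fxyd7 (2.45, 0.0405) had the largest log2 differences among the genes that were higher. Gata2, at 552.5, 549 and 535 CPM in the cells with Fst alone, differed by 0.20 (adjusted p = 0.84) and Gata3 by -0.07 (adjusted p = 0.94). A difference in the GATA factors between the 2 classes of cells with Fst did not pass the test, and the levels of Gata2 in both classes lay above those of all the other cells together.

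The genes lower than in the cells with Fst alone were led by Tac1, Ebf1, Hmga2, Fbxo2, Nectin3 and S100a1. Tac1, the precursor of substance P, stood at 0, 0 and 66.0 CPM in Hensen's cells and at 494, 216 and 575 CPM in the cells with Fst alone (-3.68, adjusted p = 5.47e-08). Hmga2, a chromatin protein of early development, stood at 0, 119 and 160.2 CPM against 651, 471.5 and 488.5 CPM (-2.80, adjusted p = 7.61e-08). Bmp4 was lower too, at 379, 380.3 and 685 CPM in the cells with Fst alone (-1.35, adjusted p = 0.0229), and so were Epyc (-1.59) and Krt8 (-1.10). Tecta, the tectorial membrane protein gene, was higher in Hensen's cells, at 1477, 963 and 412 CPM against 292, 299 and 132 CPM (1.80, adjusted p = 6.87e-07). Without replicate 2 the counts fell to 7 and 12 and without replicate 3 to 14 and 15. Fabp7, Nupr1, Tac1, Hmga2, Fbxo2 and S100a1 kept their calls without each library, whereas Egfl6, Col26a1, Fxyd7 and Nectin3 lost them without replicate 2 or 3, Syt6 and Ebf1 without replicate 2, and Nectin3 also without replicate 1. The libraries of the 2 classes did not overlap in all 6 genes named as higher and 5 of the 6 named as lower. Over all genes tested the shares were 4.08% and 10.1%, but the named genes were chosen by their differences in these libraries.

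Cells that hold Fgfr3 and Prox1 but neither Pmch nor Pou4f3 stand for the lateral prosensory and Deiters' region next to Hensen's cells, with 28, 76 and 45 cells. Hensen's cells were higher for 63 (1.02%) and lower for 77 (1.25%) of the 6163 genes in this test, with a median of -0.18. Gata2 was among the genes that were higher and stood at 23.2, 51.9 and 87.3 CPM in the cells with Fgfr3 and Prox1 (3.23, adjusted p = 5.88e-07). Fabp7 (4.36, adjusted p = 7.64e-10), Pcdh17 (3.35, 0.00033), Rcsd1 (2.98, 0.00934), Fxyd7 (2.96, 0.00934) and Loxl1 (2.96, 0.00834), a lysyl oxidase relative that crosslinks elastic fibres, made up the rest of the 6 largest. Clu stood at 619, 1333 and 1167 CPM in those cells, far under all 3 libraries of Hensen's cells (2.47, adjusted p = 6.10e-22).

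Notch genes were among those lower than in the cells with Fgfr3 and Prox1. Hes5, a Notch effector, had 0 UMIs in all 64 Hensen's cells and stood at 155, 269.7 and 911 CPM in the cells with Fgfr3 and Prox1 (-4.18, adjusted p = 5.36e-06). The 0 of replicate 1 allows up to 177 CPM, above the 155 CPM of its comparison cells, so that library does not show them apart. Lfng, which encodes a modifier of Notch receptors, stood at 0, 17.7 and 13.2 CPM against 382, 346 and 396 CPM (-3.75, adjusted p = 7.14e-06). Hey1, Hes6 and Jag1, a Notch ligand gene, were also lower, so that 5 of 9 tested Notch genes were lower and 0 higher (median -1.11). Of these 5, Hes5, Hey1, Jag1 and Lfng are also on the list for lateral prosensory and Deiters' cells, so the counts of the lists are not separate. Against all other E16 cells 0 of 9 tested Notch genes passed. S100a1, Tectb, Ebf1 and the non-coding RNA Pantr1 had log2 differences of -4.69, -4.62, -4.80 and -3.89. Of the genes listed for lateral prosensory and Deiters' cells, 22 tested, 11 were lower and 0 higher, Sox2 (-2.31, adjusted p = 0.000387), Fzd9, Ntf3, Nrcam and Tgfbr1 among them, but the comparison cells were picked by 2 genes of that list. Without replicates 1, 2 and 3 in turn the counts were 100 and 117, 31 and 37, and 26 and 27. Pcdh17, Rcsd1, Fxyd7 and Loxl1 lost their calls without replicate 2 or replicate 3, and Hes5 (adjusted p = 0.22) without replicate 3. The measured values of the classes did not overlap in any of the 6 named genes of either direction, Hes5 with the limit given above. Over all genes tested the shares were 5.61% and 10.4%, but the named genes were again chosen by these differences. All 3 comparisons at E16 rest on the same 64 Hensen's cells.

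**Figure D2:**
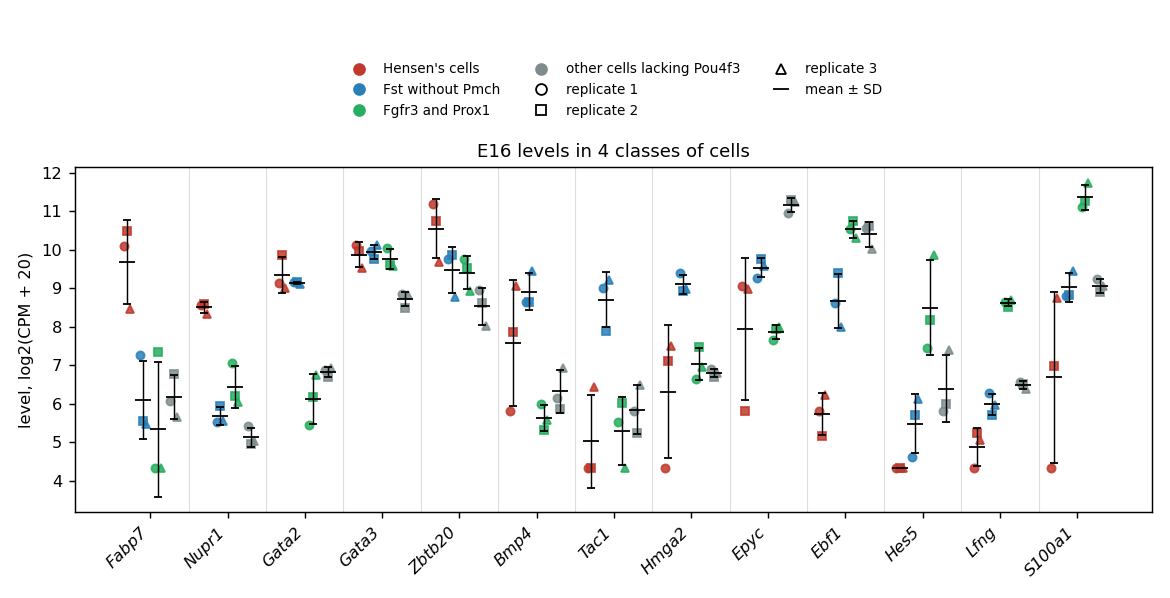
E16 levels of 13 genes as log2(CPM + 20) on the vertical axis in Hensen's cells (red), cells with Fst but no Pmch (blue), cells with Fgfr3 and Prox1 (green) and all other cells lacking Pou4f3 (grey, which include the blue and green cells), 1 point per library with the mean ± SD over 3 libraries. Fabp7 and Nupr1 are highest in red, Gata2 and Gata3 are alike in red and blue, Tac1 and Hmga2 are highest in blue, and Hes5, Lfng and S100a1 are highest in green.

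The same gate was applied to the 4 P1 libraries, which share no cell with those of E16, and found 50, 9, 20 and 68 cells. Of 6121 genes tested, 470 were higher (7.68%) and 566 lower (9.25%) than in the other P1 cells. Of the 53 genes higher at E16, 46 (86.8%) were also called higher at P1, and of the 92 lower at E16, 79 (85.9%) were also called lower; 0 were called in the opposite direction. Nupr1 stood at 723, 1032, 732.5 and 619.7 CPM in the P1 cells against 29.0, 18.2, 15.3 and 12.7 CPM in the others (4.35, adjusted p = 2.94e-09). Egfl6 stood at 795, 702, 489 and 504 CPM against 24.3, 13.3, 14.4 and 20.0 CPM (4.06, adjusted p = 4.72e-09), and Gata2 at 685, 481, 681 and 895 CPM against 96.7, 53.5, 61.5 and 161 CPM (2.70, adjusted p = 5.29e-08). Fabp7 stood at 1214, 1160, 826.5 and 143 CPM against 287, 99.2, 77.2 and 22.3 CPM (2.60, adjusted p = 1.75e-06), so that the lowest P1 library of Hensen's cells lay below the highest of the others, although it was higher within every library. Over all genes tested at P1, 6.13% lay apart as higher and 6.88% as lower. Without P1 replicate 4 the count of genes lower at P1 was 373, and without the block for library 199 genes were higher and 280 lower. Of 12 tested dissociation stress genes 7 were lower and 1 higher at P1 (summed level 3467 to 5173 CPM against 4820 to 6284 CPM), and their part in the result was not tested. Pmch UMIs were found in 2.29% of P1 cells with Pou4f3, in 1.23% of those without Fst and in 19.5% of those with Fst. Barcodes of 2 P1 Hensen's cells also occurred in another P1 library.

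Bmp4, which had not passed at E16, was higher at P1, at 158, 112, 239 and 300.5 CPM against 32.5, 6.59, 4.33 and 8.66 CPM (2.74, adjusted p = 7.04e-06). The same held for Inhba (1.09, adjusted p = 0.00164) and Aldh1a1, a retinaldehyde dehydrogenase gene (2.52, adjusted p = 2.47e-06). Passing at P1 only does not show a change with age. The ratios of means at E16 and P1 were 6.51 and 3.37 for Inhba, 3.94 and 15.6 for Bmp4, and 4.64 and 46 for Aldh1a1. Of the E16 calls that were not called at P1, Clu (0.16, adjusted p = 0.35), Manf (-0.33, 0.14) and Sdf2l1 (-0.02, 0.96), the last 2 of the folding machinery of the endoplasmic reticulum, were chosen here after their values were seen. All 31 genes of the study's E16 list were higher at P1, and those include Il33, Egf, Emx2, Plet1, Rassf9, Aqp11, Fam159b and Rgs4. Whether the difference between Hensen's and other cells changed from E16 to P1 was tested directly: 0 of 6256 genes passed in limma (642 at an unadjusted p under 0.05). The difference for Meg3 went from -4.01 at E16 to -1.40 at P1 (change 2.62 ± 0.50, adjusted p = 0.27) and that for Tac1 from -0.82 at E16 to 1.995 at P1 (change 2.82 ± 0.59, adjusted p = 0.32), and neither change passed. Age and day of collection cannot be told apart.

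**Figure D3:**
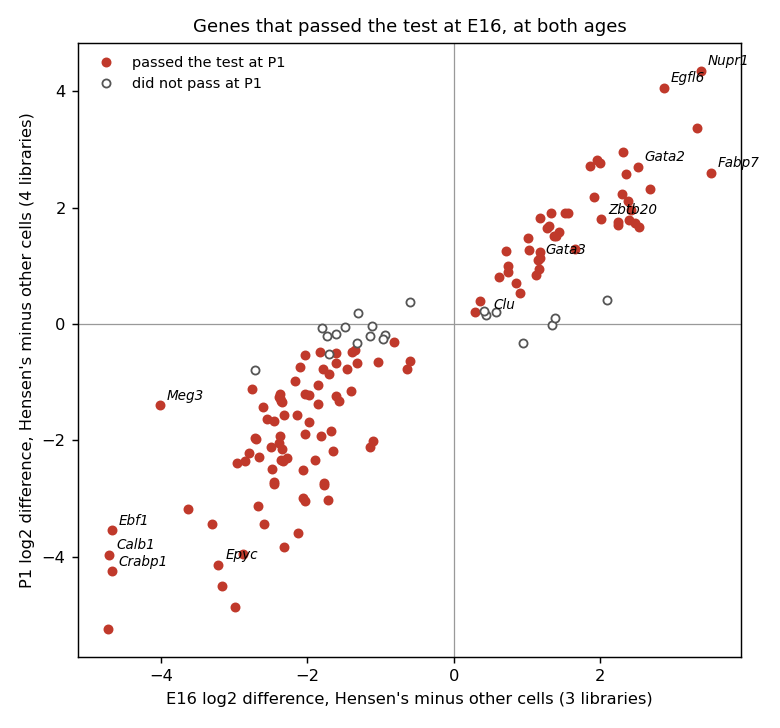
Log2 difference between Hensen's cells and other cells lacking Pou4f3 for the 145 genes that passed the test at E16, at E16 on the horizontal and at P1 on the vertical axis; filled points also passed at P1. Of these genes 46 lie filled in the upper right and 79 filled in the lower left, and none of the filled points lies in the other corners.

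At E14 and P7 the gate found 8 and 12, and 9 and 6 cells, and no test was run on them. The E14 cells had 0 UMIs of Fabp7 and Nupr1 in both libraries, which allows levels of up to 48.5 and 23.9 CPM (3 UMIs). They did hold Gata2, at 1109 and 680.1 CPM, and Bmp4 at 1053 and 343 CPM. Their median was 7407 and 11260 UMIs, against 3483 and 3282 in the other E14 cells, and 2 cells of each library passed after thinning to 1500 UMIs. At P7 Nupr1 stood at 1509 and 2222 CPM, Fabp7 at 598 and 1950 CPM and Kazald1 at 2627 and 1865 CPM, while Bmp4 was at 0 in both libraries, which allows levels of up to 42.7 and 54.9 CPM.

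The 64 cells were not alike. In replicate 3, the only library with enough cells for a split, 25 cells held 1 Pmch UMI and 26 held more, with medians of 3492 and 4210 UMIs. The split was chosen after the values were seen and uses a gate gene, so it is a description. Fabp7 stood at 45.2 CPM in the cells with 1 Pmch UMI and at 605 CPM in the rest, Egfl6 at 15.1 and 377 CPM, Kazald1 at 84.8 and 450.0 CPM, and Nupr1 at 118 and 483 CPM. Epyc went the other way, at 933 and 46.7 CPM, and so did Bmp4, at 711 and 316 CPM. Gata2 was high in both, at 612 and 385 CPM. In the cells with 1 Pmch UMI the levels of Epyc and Bmp4 lay near those of the cells with Fst but no Pmch in the same library, 745 and 685 CPM. Whether the cells with 1 Pmch UMI are the same kind of cell as the rest was not tested. The name Hensen's cells covers them through the gate. Restricting the gate to at least 2 Pmch UMIs gave 66 genes higher and 103 lower than in the other E16 cells. The 50 cells with Pmch but no Fst that passed the other limits held Kazald1 at 367 CPM, Gata2 at 372 CPM and Fabp7 at 173 CPM on average.

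**Figure D4:**
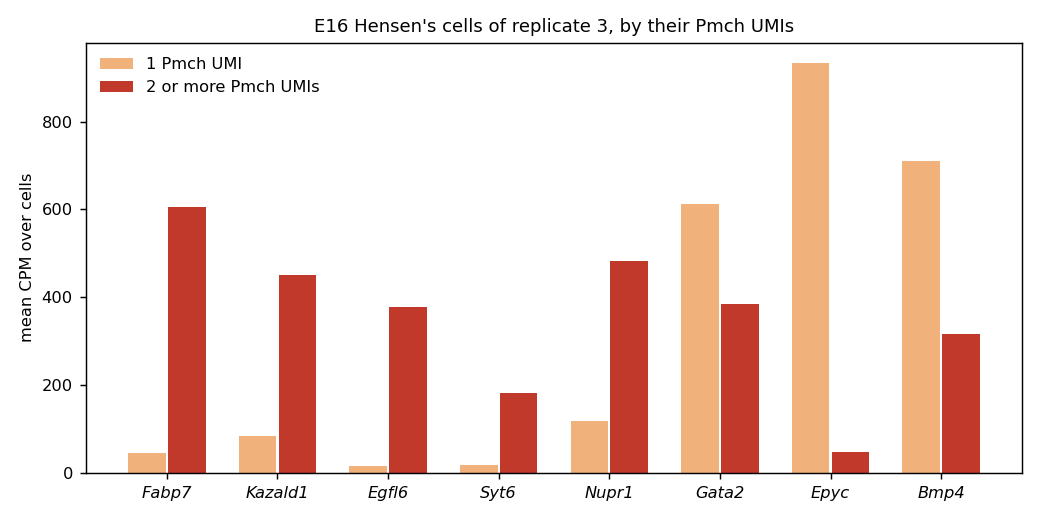
Mean CPM over cells for 8 genes in the E16 Hensen's cells of replicate 3, split into 25 cells with 1 Pmch UMI (light) and 26 cells with 2 or more (dark); bars start at 0 and there is 1 library, so no error is drawn. Fabp7, Kazald1, Egfl6, Syt6 and Nupr1 are higher in the dark bars, and Epyc, Bmp4 and Gata2 in the light bars.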

How the data were processed

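The authors deposited, for each age, a table of natural log values, ln(1 + 10000 × the fraction of a cell's UMIs that a gene took), made with Cell Ranger 2.1.1 and Seurat 2.0 on mm10 according to the methods and the submitters' processing notes. UMIs were recovered from these values (whole within 2%). Cells were gated on the ln values, and the mean CPM over the cells of a class and library gave 1 profile each. Genes whose mean reached 20 CPM were compared on log2(CPM + 20) with limma 3.58.1 (R 4.3.3, mean trend), with Benjamini-Hochberg adjustment over all genes tested and a threshold of 0.05. Library was a block, since both profiles of a pair come from the same library. Against the other E16 cells and the cells with Fst alone, limma's weight for the trend (prior degrees of freedom) was infinite. Each gene's variance was then that of the trend. The weight was 70.45 against the cells with Fgfr3 and Prox1 and 10.02 at P1. The 6 gate genes, and Fgfr3 and Prox1 where they chose cells, were not tested. Named genes were the 12 (6 in the comparisons with narrower classes) of largest difference each way that passed, moved alike in all 3 libraries and reached 100 CPM and 10 UMIs in the higher group, without mitochondrial, ribosomal, Gm and Rik genes. Members and lists were chosen with earlier results of these data known. On simulated profiles of these depths, more of the E16 calls were false than the threshold allows. The simulated counts were drawn for whole profiles and not cell by cell. No doublet caller was run. Other tools were Python 3.11.15, numpy 2.4.6, scipy 1.17.1 and pandas 2.3.3. Results for some genes are not reported here.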

Additional observations from a re-analysis of the deposited data

Results flagged for a closer look

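Among 36 sets of 4 P1 libraries, 4 held a library far from the other 3. The sets were the levels of the named genes in Hensen's cells and the share of cells in the gate. Chance gives about 1 in 20 for normally distributed values, which CPM of few cells need not be, so an excess is not shown. Fbxo2 stood at 1418 CPM in P1 replicate 2, against 674.5 to 792 CPM in the other libraries. Loxl1 stood at 162.6 CPM and Tac1 at 267.4 CPM in the same library, which holds 9 Hensen's cells. Tectb stood at 385.8 CPM in P1 replicate 1, against 13.4 to 73.4 CPM. The difference of Tac1 between Hensen's and other cells moved in opposite directions at the ages compared, by 2.82 on the log2 scale from E16 to P1 (limma, adjusted p = 0.32), which did not pass.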

How the results depend on the processing

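Against the other E16 cells, where 53 genes were higher and 92 lower, the counts were 33 and 47 with a filter of 50 CPM, 23 and 50 without cells of more than 5000 UMIs, 14 and 31 with cells thinned to 1500 UMIs, and 1 and 4 with as many other cells as Hensen's cells. Without a filter 2263 genes were lower, of 21332 tested. Median-of-ratios scaling gave 34 higher and 121 lower and moved the median over all genes from -0.21 to -0.35. With as many other cells as Hensen's cells, in 1 random draw, that median was 0.0595, and without E16 replicate 1 it was -0.0452. Both profiles of a pair come from the same library, so library was a block; without this pairing the counts were 12 and 15 against the other cells, 2 and 2 against cells with Fst alone, 32 and 43 against cells with Fgfr3 and Prox1, and 199 and 280 at P1. Leaving out each library in turn gave 19 to 87 higher and 44 to 121 lower, 7 to 57 and 12 to 54, 26 to 100 and 27 to 117, and at P1 334 to 461 and 373 to 552, in the same order; for the change from E16 to P1 it gave 0 or 1 lower. Precision weights from the UMIs of each profile, added after the data were seen, gave 73 and 127 against the other cells (52 and 76 shared with the unweighted calls), 45 and 33 against cells with Fst alone (35 and 25 shared) and 86 and 124 against cells with Fgfr3 and Prox1 (62 and 75 shared), and kept the calls of 47 of 48 named results. Of the named results, 22 of 24 lost their call with the equal draw of other cells, 13 of 24 with thinning, 18 of 48 without the block, and 2, 18 and 17 of 48 without E16 replicates 1, 2 and 3; none reversed under these settings. The share of cells in the gate after thinning was 0.0910% and 0.0655% at E14, 0.161%, 0.107% and 0.538% in E16 replicates 1 to 3, 0.934%, 0.275%, 0.516% and 0.929% in P1 replicates 1 to 4, and 0.225% and 0.0624% at P7. The 4 and 9 Hensen's cells of E16 replicates 1 and 2 limit what can be detected: levels under 177 and 65.4 CPM can appear as 0. The causes of these changes were not tested.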
